A study of Mus musculus with 7 samples.

Results

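Divergent protein-coding promoter pairs are pairs of protein-coding genes that lie on opposite strands and point away from each other, with their starts at most 1 kb apart. Pairs were found in the GENCODE M21 annotation of the mouse genome build mm10: 755 pairs met the rule, and they held 1489 of 21938 protein-coding genes, or 6.79%. The starts of a pair lay 0 to 987 bp apart, with a median of 129 bp, and 42 pairs shared a gene with another pair, so that the 755 regions merge into 734. Each region ran from 500 bp before the lower start to 500 bp after the higher start. Chromosome 11 held the most pairs, 68, chromosome X held 20 and chromosome Y held 0.

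Open chromatin regions (OCRs) were read from bulk ATAC-seq, in which a transposase inserts sequencing adapters into accessible DNA, in 7 libraries of HPC7, an established mouse hematopoietic progenitor cell line grown in Iscove's medium with stem cell factor. All 7 libraries fall into a single group by their labels (libraries 1, 2 and 4 to 8, from independent culture batches by the methods of the study), and they served as the bulk reference for single-nucleus ATAC-seq of the same line. The lists held 84593 to 132852 peaks per library (132852, 93131, 103794, 98270, 84593, 105113 and 124126 in libraries 1, 2, 4, 5, 6, 7 and 8), and read depth is not given in them. The names of the peaks begin with VD in libraries 1, 2 and 4 and with EtOH in libraries 5 to 8, which the labels do not explain. Whether all cells were treated alike is thus not known. Values within either prefix stand beside the pooled ones only for the 8 tested differences between sets of regions. Of 77 blood genes listed to check the cell type, 61 had a peak within 500 bp of their annotated start in all 7 libraries (79.2%, against 49.8% of all protein-coding starts), among them the stem cell factor receptor gene Kit at a mean fold enrichment of 108, Lyl1 at 266, Runx1 at 128, Spi1 at 91.3 and Cd34 at 80.8. Another 12 had a peak in no library, among them the progenitor factors Gata2, Erg and Mecom as well as the B-cell gene Pax5, where only the outermost annotated start of a gene was read.

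A bidirectional promoter places a pair of transcription start sites back to back, so that a single nucleosome-poor stretch of DNA can serve both genes. In mammals such promoters are often CpG islands without a TATA box, carry sites for ETS family factors, NF-Y, NRF1, YY1 and SP1, and are known for housekeeping genes, those of DNA repair, mitochondria and core histones in particular. The intervals between the starts are short enough to be read whole.

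A few intervals show the range. The intervals below are given 5′ to 3′ on the plus strand, from the base after the minus-strand start to the base before the plus-strand start, as read from the GRCm38 reference, which is the build of the peaks. Capitals mark matches, on either strand, to the letters CCAAT (the core bound by NF-Y), GGGCGG (the SP1 box), CTTCCGG (an ETS core), AAGATGGC (YY1) and GCATGCGC (NRF1). Matches of an ETS and an NF-Y kind can abut or overlap their own reverse complement, as in Trmt6/Mcm8 and Ndufaf2/Ercc8. The first pair is shown because its peak was the most intense of the 755, the next because its interval is a tandem repeat, the following 4 because they are known bidirectional promoters of DNA repair, replication and mitochondrial genes with different sets of matches, and the last because it had no peak in any library.
Aamp/Pnkd, chr1:74284739-74284929: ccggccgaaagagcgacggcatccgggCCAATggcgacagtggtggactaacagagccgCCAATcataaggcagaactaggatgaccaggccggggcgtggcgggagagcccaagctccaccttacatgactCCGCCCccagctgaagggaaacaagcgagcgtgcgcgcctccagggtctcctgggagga
B3galt6/Sdf4, chr4:155992650-155992871: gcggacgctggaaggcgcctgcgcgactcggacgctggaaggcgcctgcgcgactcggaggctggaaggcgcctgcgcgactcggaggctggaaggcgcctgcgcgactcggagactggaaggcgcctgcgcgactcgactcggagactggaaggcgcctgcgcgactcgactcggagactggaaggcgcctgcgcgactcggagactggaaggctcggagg
Brca1/Nbr1, chr11:101551956-101552148: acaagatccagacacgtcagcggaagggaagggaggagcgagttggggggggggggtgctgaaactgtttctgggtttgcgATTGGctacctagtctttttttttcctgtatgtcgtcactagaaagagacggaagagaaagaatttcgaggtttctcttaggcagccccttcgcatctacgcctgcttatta
Trmt6/Mcm8, chr2:132816056-132816140: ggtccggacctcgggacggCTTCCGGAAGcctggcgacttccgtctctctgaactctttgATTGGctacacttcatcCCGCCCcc
Mrps12/Sars2, chr7:28741821-28741991: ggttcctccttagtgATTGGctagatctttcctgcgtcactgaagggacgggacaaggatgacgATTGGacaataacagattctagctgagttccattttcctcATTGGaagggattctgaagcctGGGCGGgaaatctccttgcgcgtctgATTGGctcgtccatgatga
Ndufaf2/Ercc8, chr13:108158624-108158730: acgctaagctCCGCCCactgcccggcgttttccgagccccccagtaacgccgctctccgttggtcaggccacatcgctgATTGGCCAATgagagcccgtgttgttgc
Col4a4/Col4a3, chr1:82586850-82586920: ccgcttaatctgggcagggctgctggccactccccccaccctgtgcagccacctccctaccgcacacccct

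The first comparison asked how often the pairs carried an OCR. A peak touched the region, by at least 1 bp, in 693 to 700 of the 755 pairs per library, which is 92.7%, 92.1%, 92.2%, 92.1%, 91.8%, 92.2% and 92.2% of pairs in libraries 1, 2, 4, 5, 6, 7 and 8. The 7 shares lay within 1 percentage point of each other, with library 1 at the top, although the number of peaks per library varied by far more. In all 7 libraries, 693 pairs (91.8%) had a peak, against 49.8% of all 21938 protein-coding starts measured with 500 bp on either side. In contrast, 55 pairs (7.28%) had a peak in no library, against 45.4% of all protein-coding starts. The remaining 7 pairs had a peak in 1 to 6 libraries, as did 1063 of the 21938 protein-coding starts. A detection call at a pair was therefore nearly always shared by every library, as most calls over all protein-coding starts were.

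Isolated starts served as the main comparison set: 13984 protein-coding starts with no other gene start of any kind within 5 kb. They carried a peak in 42.6% ± 1.08 of cases (SD, n = 7 libraries), against 92.2% ± 0.280 of pairs. A pair region holds both starts of a pair and a peak at either counts, while an isolated region holds a single start. Share, fold enrichment and width are thus compared per region and not per start. The difference within a library was 49.5 ± 0.823 percentage points and lay between 48.0 and 50.3 (exact two-sided sign-flip permutation test over 7 libraries, p = 0.0156, the smallest this design allows, and 0.0156 after Benjamini-Hochberg adjustment over the 8 tests made). It was 49.3 points over the libraries with VD names and 49.7 over those with EtOH names. When 1563 isolated starts of gene families restricted to other tissues, such as olfactory receptors and keratins, were left out, an alternative chosen after seeing the data, the difference was 44.4 points. The p-values here measure the spread between libraries of a single cell line and not the spread between genes.

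The second comparison set had the same geometry with a long noncoding RNA gene in place of one of the coding genes, and held 774 such coding-lncRNA pairs whose coding gene was in no coding pair. Their regions carried a peak in 74.3% ± 0.376 of cases, so that coding pairs exceeded them by 17.9 ± 0.244 percentage points (17.985 over VD and 17.764 over EtOH libraries) and did so in each of the 7 libraries (exact p = 0.0156, adjusted p = 0.0156 by the same permutation test). Divergent coding pairs over 1 and up to 2 kb apart, of which there were 108, carried a peak in 77.5% ± 1.03 of cases. Coding pairs within 1 kb thus had the highest share of the 4 sets of regions, followed by the wider coding pairs and the coding-lncRNA pairs.

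Peak intensity followed the same order. Fold enrichment is the height of a peak at its summit over the background of its own library, as given by the peak caller, and it is not scaled between libraries. For the most intense peak of each region, the median over the pairs with a peak was 128, 100.7, 114, 135, 79.5, 95.8 and 115 in libraries 1, 2, 4, 5, 6, 7 and 8. Library 6, with the fewest peaks, was lowest and library 5 was highest, and the medians at isolated starts ranged from 50.2 to 83.9 over the libraries. On the log2 scale the medians were 6.76 at pairs and 6.10 at isolated starts, a within-library difference of 0.65 ± 0.030 (0.67 over VD and 0.64 over EtOH libraries) or 1.57-fold (exact sign-flip permutation test, p = 0.0156, adjusted p = 0.0156, higher in 7 of 7). The difference between the sets thus varied far less over libraries than the medians themselves, whose SD at pairs was 0.26. Against coding-lncRNA pairs, at 6.55, the difference was 0.21 ± 0.043, with 0.21 within either prefix, or 1.16-fold (same test, exact p = 0.0156, adjusted p = 0.0156, higher in 7 of 7).

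The rank of a peak within its library removes the scale of the library. The median pair peak stood at the 96.2th percentile of all peaks of its library, against 92.2 at isolated starts and 95.03 at coding-lncRNA pairs, differences of 4.01 ± 0.533 and 1.21 ± 0.338 percentile points (exact permutation p = 0.0156 and adjusted p = 0.0156 for both, higher in 7 of 7). Over VD libraries these were 3.91 and 1.11 percentile points and over EtOH libraries 4.08 and 1.29. In all 7 libraries, 544 pairs (72.1%) had a peak among the most intense 10% of the library, against 29.6% of all protein-coding starts, 21.5% of isolated starts and 51.2% of coding-lncRNA pairs. Among the most intense 1% of peaks, 10.8% ± 0.435 overlapped a pair, while 0.655% ± 0.0984 of all peaks did.

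Peaks at pairs were also wider than at isolated starts and coding-lncRNA pairs. The median width was 2396, 1865, 1987, 1883, 1898, 2051 and 1867 bp in libraries 1, 2, 4, 5, 6, 7 and 8, with a mean of 1992 bp against 1600 bp at isolated starts and 1894 bp at coding-lncRNA pairs. At the 108 divergent pairs over 1 and up to 2 kb apart it was 2114 bp, more than at the closer pairs. The within-library differences were 393 ± 29.4 bp and 98.4 ± 19.2 bp, positive in every library (exact permutation p = 0.0156 and adjusted p = 0.0156 for both). Library 1, which had the most peaks, also had the widest peaks at pairs, and without it the differences were 382 and 94.0 bp. Over the libraries with VD names the differences were 404 and 99.3 bp and over those with EtOH names 384 and 97.8 bp.

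**Figure D1:**
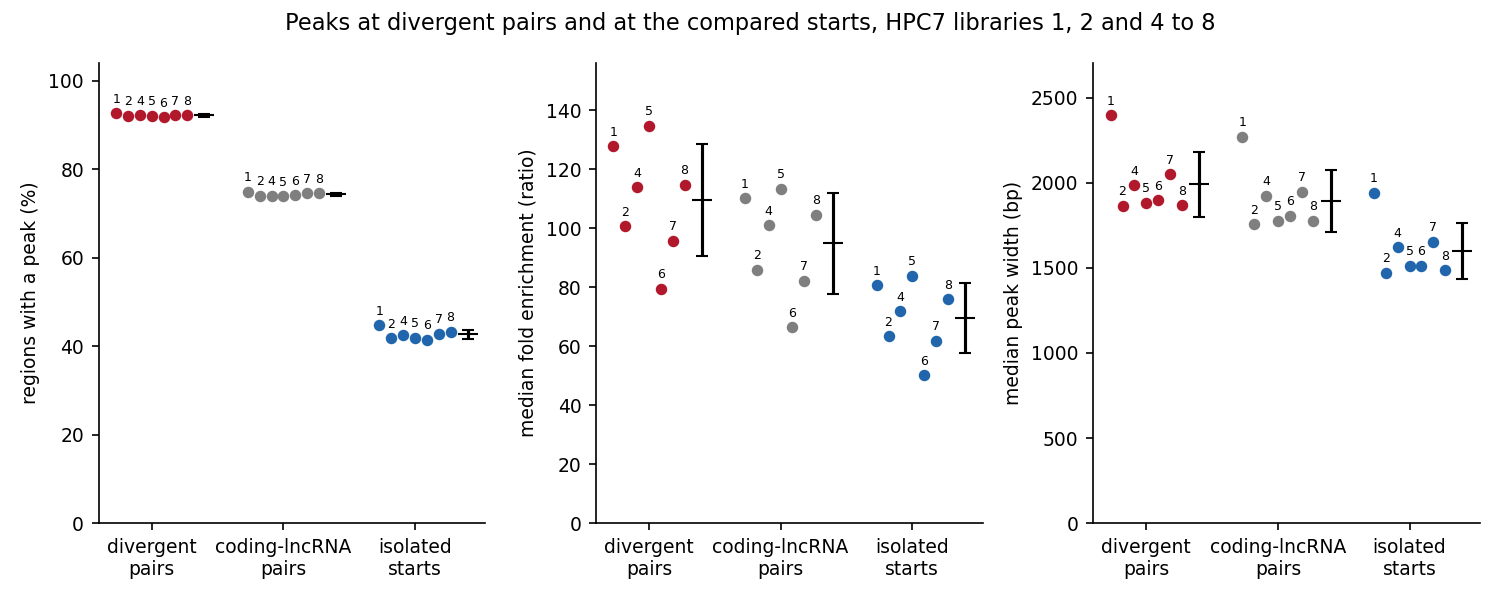
Share of regions with a peak (percent), median fold enrichment and median peak width (bp) at divergent pairs, coding-lncRNA pairs and isolated starts, with 1 numbered point per library and a bar for the mean ± SD over 7 libraries. Pairs stand highest in each panel, at 92.2%, 74.3% and 42.6% for the shares, and the shares of the 3 sets do not overlap between libraries while fold enrichments do.

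Base composition differed between the sets as well. In the 500 bp on either side of the midpoint of a pair, the median GC content was 60.1% and the median ratio of observed to expected CpG was 0.773, against 53.0% and 0.433 around isolated starts. CpG-rich regions, defined here by at least 55% GC and a CpG ratio of at least 0.6, made up 73.1% of pairs, 64.3% of coding-lncRNA pairs and 32.1% of isolated starts. Among CpG-rich regions alone (552 pairs, 4482 isolated starts), pairs exceeded isolated starts by 20.7 ± 0.280 percentage points in share, by 0.41 in median log2 fold enrichment, by 2.38 percentile points and by 215 bp in width. All 4 differences were thus smaller than over all regions and kept their direction in 7 of 7 libraries. Against the 498 CpG-rich coding-lncRNA pairs the differences were 11.9 percentage points, 0.19, 1.03 percentile points and 36.4 bp, the width being greater at coding pairs in 6 of the 7 libraries (exact permutation p = 0.0469).

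The share with a peak climbed with the CpG ratio up to a ratio of 1 in all 3 sets. Of the 35 pairs with a ratio under 0.4, 36.7% had a peak per library, against 15.1% of isolated starts in that class. Of the 80 pairs at 0.4 to 0.6, 82.7% did, against 43.8%. The 315 pairs at 0.6 to 0.8 reached 94.6% and the 299 pairs at 0.8 to 1 reached 98.3%, against 71.5% and 83.3%. At a ratio of 1 or more, the 26 pairs were at 96.2% and isolated starts at 87.1%. Pairs therefore led isolated starts within each of these classes, and the lead was widest at 0.4 to 0.6. Once a peak was there, its median log2 fold enrichment over the 5 classes from low to high was 5.83, 6.53, 6.78, 6.79 and 7.01 at pairs. At isolated starts it was 3.98, 5.83, 6.28, 6.48 and 6.30, so the classes under 0.4 were lowest in both sets.

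**Figure D2:**
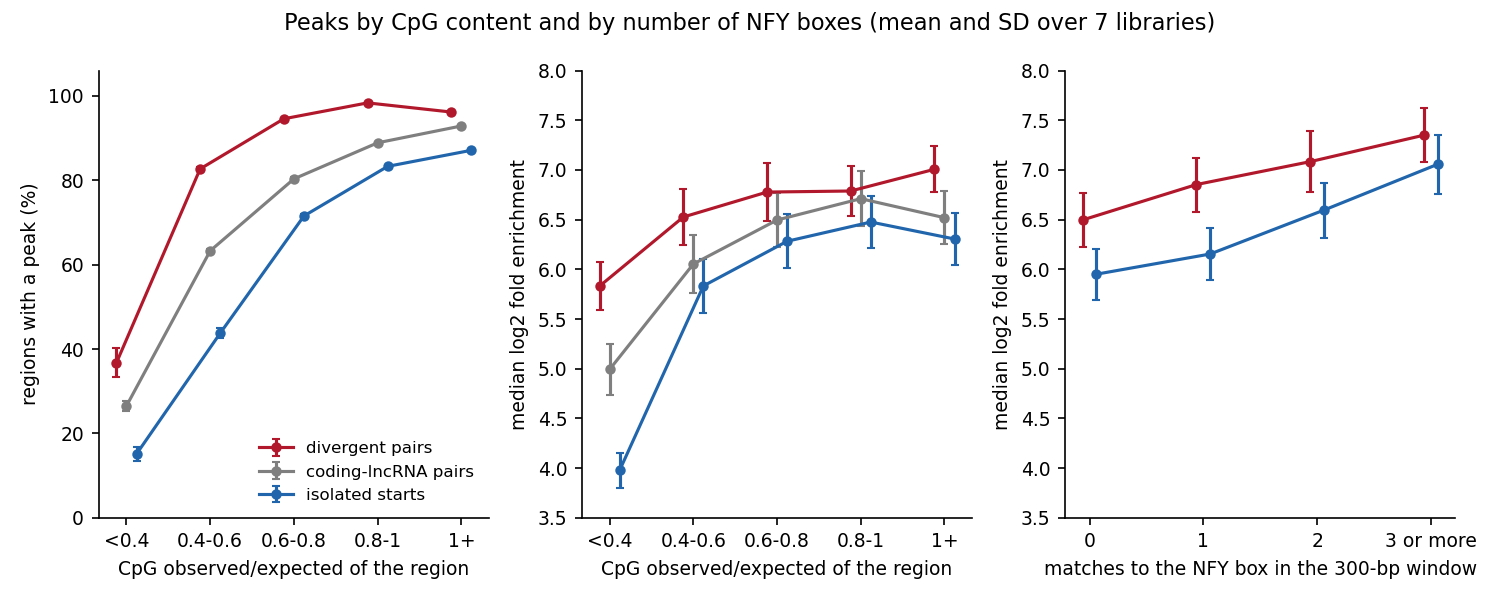
Share of regions with a peak (percent) and median log2 fold enrichment by class of CpG observed to expected, for divergent pairs, coding-lncRNA pairs and isolated starts, and median log2 fold enrichment by the number of CCAAT boxes in the 300-bp window, for pairs and isolated starts. Pairs lead isolated starts in share within each CpG class, 36.7% against 15.1% in the lowest, and the fold enrichment of pairs climbs from 6.50 without a CCAAT box to 7.35 with 3 or more.

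Short sequence motifs were counted as letters, on both strands, in the 150 bp on either side of the midpoint of a pair. At a single start the window ran from 250 bp before to 50 bp after it, so that each window spans 300 bp. The windows are equal in length but not in content. A pair window can hold both starts and sequence downstream of each, the other window only a single start and 50 bp downstream of it. No motif in the list contains another, and matches may lie side by side or overlap. The ETS letters CTTCCGG stood in 211 pairs (27.9%), against 8.15% of isolated starts, 18.99% of coding-lncRNA pairs and 10.8% of all protein-coding starts. Within CpG-rich regions the shares were 31.3% of pairs and 14.3% of isolated starts. Of the pairs with an ETS match, 98.6% had a peak in all 7 libraries, against 91.8% of all pairs. The YY1 letters AAGATGGC stood in 64 pairs (8.48%), against 2.26% of isolated starts and 2.92% of all protein-coding starts, and 64 of these 64 pairs had a peak in all 7 libraries. Within CpG-rich regions YY1 letters were in 9.60% of pairs and 3.53% of isolated starts.

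The remaining letters are given in turn. CCAAT, the NF-Y core, was in 44.8% of pairs against 38.8% of isolated starts and 39.0% of all protein-coding starts. The SP1 box GGGCGG was in 68.1% of pairs against 38.6% of isolated starts and 43.0% of all protein-coding starts, but within CpG-rich regions its share was 75.5% of pairs and 77.8% of isolated starts. The NRF1 letters GCATGCGC were in 6.49% against 3.35% (3.71% of all starts), and the cyclic AMP response element TGACGTCA in 4.37% against 2.04% (2.43% of all starts). In the opposite direction, the TATA box letters TATAAA were in 4.37% of pairs against 14.5% of isolated starts and 12.6% of all starts, and the letters bound by blood factors were rarer too, with 8.87% against 16.3% for the RUNX letters TGTGGT (15.3% of all starts) and 4.77% against 11.1% for the GATA letters AGATAA (10.2% of all starts). Within CpG-rich regions several of these contrasts shrank or went: NRF1 letters were in 5.98% of pairs and 5.91% of isolated starts, GATA letters in 3.62% and 3.66%, RUNX letters in 8.33% and 9.39%, and the cyclic AMP element in 4.53% and 3.61%. TATAAA was in 2.90% and 5.33% there, and CCAAT in 43.8% and 35.6%. Coding-lncRNA pairs were at 39.4% for CCAAT and 2.84% for YY1, nearer to isolated starts than to coding pairs. They lay closer to coding pairs for the other letters of this paragraph, at 67.6% for SP1, 5.30% for NRF1, 3.88% for the cyclic AMP element, 4.91% for TATAAA, 9.82% for RUNX and 4.52% for GATA. These shares describe letters in a window and say nothing of binding.

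The positions of matches in the window differed between motifs, counted from the nearest start with downstream positive. The 611 CCAAT matches at pairs had their median 40 bp upstream (-40), and 80.0% lay upstream of that start, between the genes. The 67 YY1 matches had their median 27.5 bp inside the transcribed gene, with its quartiles at 17.5 and 41 bp, and 76.1% read in the direction of that gene. The 268 ETS matches were centred on the start itself, with a median of 1 bp. The 1066 SP1 matches had a median of -13.5 bp. Within the window, the NF-Y core thus lay mostly between the genes of a pair and the YY1 letters mostly inside them. In pairs over 300 bp apart the window lies wholly between the starts, so any match there is upstream by construction. The share upstream that the window alone would give was not computed.

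The number of CCAAT boxes went along with peak intensity. The 417 pairs without a box had a median fold enrichment of 66.3 to 113 over the libraries, the 182 pairs with 1 box 85.3 to 147, the 84 pairs with 2 boxes 96.8 to 179 and the 72 pairs with 3 or more 119 to 207. On the log2 scale these are means over libraries of 6.50, 6.85, 7.08 and 7.35, with SDs of 0.27 to 0.31, and pairs with a box exceeded those without in 7 of 7 libraries. A peak itself was not more frequent with a box, at 91.2% of pairs against 93.0% without. Of the other letters, SP1 boxes went with a higher median (6.83 against 6.50, in 7 of 7 libraries). NRF1 letters (6.83 against 6.75) and RUNX letters (6.82 against 6.75) had the higher median in 6 of 7 libraries. ETS letters went with a slightly lower median over all pairs (6.71 against 6.77, higher in 0 of 7). The cyclic AMP element did as well (6.68 against 6.76, higher in 0 of 7). At isolated starts, ETS letters went with a higher median (6.36 against 6.03, in 7 of 7 libraries). By the number of CCAAT boxes, isolated starts showed the same order as pairs at lower levels, with 5.95, 6.15, 6.60 and 7.06. Pairs with a box had the higher median in each of the 5 classes of distance between the starts, by the least at 100 to 200 bp (6.97 against 6.79) and by the most at 200 to 300 bp (7.29 against 6.59). ETS letters showed no single direction over these classes. Their median was lower at 0 to 100 bp (6.37 against 6.42) and 500 to 1000 bp (6.50 against 7.04). It was higher at 100 to 200 bp (6.92 against 6.84) and 300 to 500 bp (7.22 against 6.999). At 200 to 300 bp both were 7.14. The classes of 300 to 500 and 500 to 1000 bp held 9 and 4 pairs with ETS letters. These letters were most frequent at 0 to 100 bp (36.7%), the class with the lowest median. Matches were counted and not chosen by intensity, but genes are not replicates, so these values are a description.

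Distance between the starts ordered the pairs as well. The 313 pairs with starts 0 to 100 bp apart had median fold enrichments of 101.02, 77.3, 86.5, 105, 62.6, 73.7 and 90.2 in libraries 1, 2, 4, 5, 6, 7 and 8, while the 100 pairs at 200 to 300 bp had 157, 127, 164, 172, 102, 125 and 149. The longer class was higher in 7 of 7 libraries. On the log2 scale the 5 classes 0 to 100, 100 to 200, 200 to 300, 300 to 500 and 500 to 1000 bp, each open at its lower bound but the first, had medians of 6.39, 6.88, 7.13, 7.06 and 7.02, so the level climbed to 200 to 300 bp and was nearly level beyond. The shares with a peak in all 7 libraries did not follow this order: 95.2%, 89.8%, 90.0%, 93.9% and 82.9% of the 313, 206, 100, 66 and 70 pairs. Across the 693 pairs with a peak in all 7 libraries, the distance had a Spearman rho of 0.319 with mean log2 fold enrichment and 0.277 with width, and the CpG ratio had 0.0714 with fold enrichment, over pairs that come from the same 7 libraries.

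Motif content changed along the same axis. ETS letters fell from 36.7% of pairs at 0 to 100 bp to 27.2%, 27.0%, 13.6% and 5.71% in the longer classes. CCAAT was in 33.2%, 51.9%, 61.0%, 56.1% and 41.4% of pairs of these classes. YY1 letters were in 10.5%, 10.7%, 3.00%, 7.58% and 1.43%. The closest pairs therefore held ETS letters most often and pairs 200 to 300 bp apart held CCAAT most often, in a window of fixed length around the midpoint which leaves out the starts themselves in pairs over 300 bp apart.

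**Figure D3:**
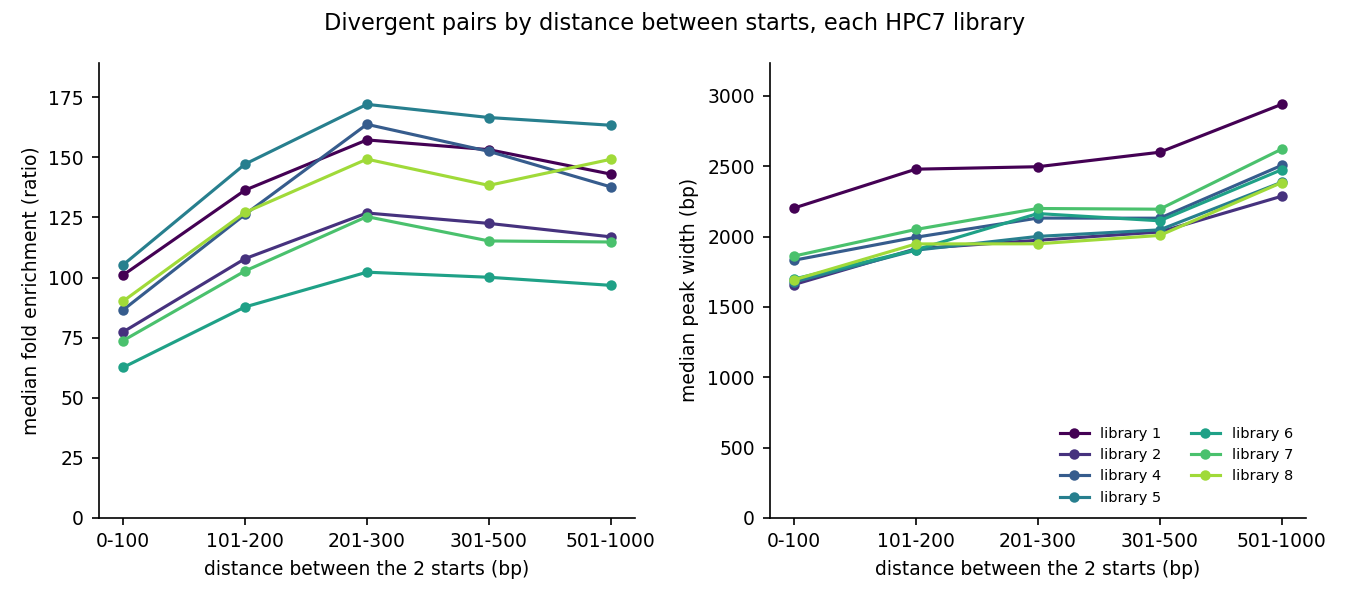
Median fold enrichment and median peak width (bp) at divergent pairs by class of distance between the starts, with 1 line per library. In each library, the class of 200 to 300 bp lies above that of 0 to 100 bp in fold enrichment, at 102 to 172 against 62.6 to 105.

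In pairs up to 500 bp apart, a single peak nearly always covered both starts. In 99.3%, 97.8% and 100% of pairs with a peak, the peak covered both starts when these were 0 to 100, 100 to 200 and 200 to 300 bp apart. This share was 97.7% at 300 to 500 bp and 78.9% at 500 to 1000 bp. The median peak widths of these classes up to 500 bp, 1803 to 2161 bp, exceeded the distances between the starts. In a library, 0.681% ± 0.270 of pairs had 2 or more separate peaks, about as at isolated starts (0.644%) and all protein-coding starts (0.729%). The share among pairs was 5.92% ± 1.92 at 500 to 1000 bp and 17.7% for the divergent pairs over 1 and up to 2 kb apart. None of the 755 pairs had 2 separate peaks in all 7 libraries. Zfyve26/Rad51b, a spatacsin-partner gene beside a gene of homologous recombination, with starts 978 bp apart, came nearest among the named pairs, with 2 peaks in 6 libraries.

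Summits took a fixed place within a pair, where whether read ends were shifted for the transposase before peak calling is not given in the sources used here. The SD of the summit position over the 7 libraries had a median of 16.7 bp, and it was under 50 bp in 602 of the 693 pairs with a peak in all 7 libraries (86.9%). The summit lay strictly between the starts in 18.5% of pairs at 0 to 100 bp, 61.7% at 100 to 200, 79.7% at 200 to 300, 71.7% at 300 to 500 and 56.0% at 500 to 1000 bp, and in 45.8% of all pairs with a peak. It lay in the direction of the minus-strand gene in 27.7% ± 1.62 of pairs and of the plus-strand gene in 26.4% ± 1.22, and the share toward the minus-strand gene was higher in 6 of 7 libraries and equal in library 2. The median distance of the summit from the midpoint was 72.0, 48.3, 34.6, 96.6 and 360 bp in the 5 classes. At 500 to 1000 bp, 13.2% of summits were within 150 bp of the midpoint while 68.0% were within 150 bp of a start.

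By annotation, 42.9% ± 2.49 of summits at pairs lay between genes, 44.8% ± 1.69 in an untranslated or other noncoding part of an exon, 4.58% ± 0.733 in coding sequence and 7.72% ± 0.409 in an intron. At isolated starts the values were 44.0%, 36.2%, 6.98% and 12.8%. At coding-lncRNA pairs they were 41.6%, 43.7%, 3.77% and 10.9%. Both kinds of pairs thus had a higher mean share of summits in noncoding exon parts than isolated starts, with no test made.

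**Figure D4:**
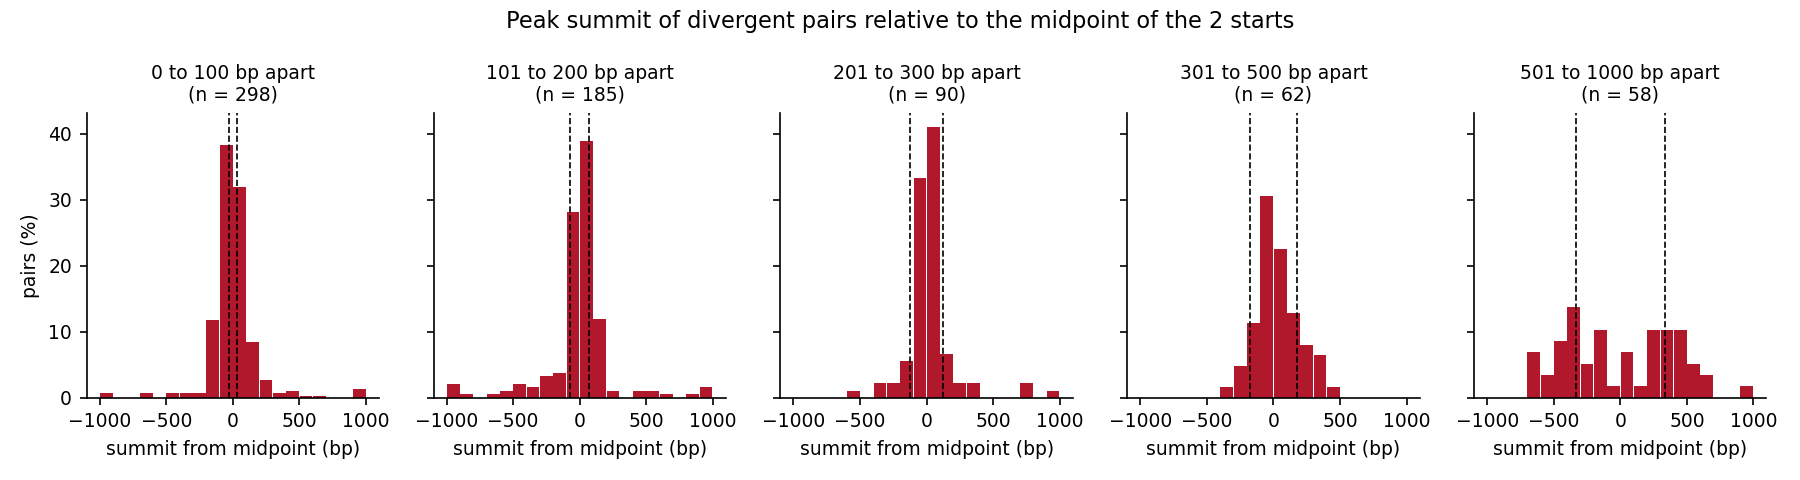
Position of the mean summit relative to the midpoint of the pair (bp, minus-strand gene to the left), as percent of pairs with a peak in all 7 libraries per 100-bp bin, for 5 classes of distance between the starts. Dashed lines mark the median positions of the starts and the end bins hold values beyond 1000 bp. At 200 to 300 bp the bins on either side of the midpoint hold 33.3% and 41.1% of pairs, and at 500 to 1000 bp no bin holds more than 13.8%.

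Individual pairs kept their rank from library to library. Across the 693 pairs with a peak in all 7 libraries, Spearman's rho of fold enrichment between 2 libraries was 0.959 to 0.991 over the 21 combinations. Isolated starts with a peak in all 7 libraries kept their rank likewise, at 0.965 to 0.987. After each library was divided by its own median over pairs, the coefficient of variation of a pair over libraries had a median of 8.08%, against 9.48% at isolated starts, and lay between 4.20% and 15.3% for 90% of pairs. Mean fold enrichment over libraries spanned 7.38 to 332 with a median of 111 and with quartiles of 73.2 and 152. The spread between pairs was therefore far wider than the change of a typical pair between libraries.

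The 6 most intense pairs were named by their mean fold enrichment. Aamp/Pnkd on chromosome 1, a gene of cell migration beside one named for a paroxysmal dyskinesia, with starts 192 bp apart, had 336, 314, 395, 426, 261, 264 and 333 in libraries 1, 2, 4, 5, 6, 7 and 8. Library 5 was highest and libraries 6 and 7 were lowest, and the mean was 332 ± 61.7 (SD, n = 7). Its interval holds 2 CCAAT boxes and 1 SP1 box, and its summit lay between the genes in 7 of 7 libraries. Srgap2/Fam72a, the first a GTPase activator of the Slit-Robo pathway, with starts 551 bp apart, had a mean of 316 ± 61.3 and a peak 4233 bp wide.

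B3galt6/Sdf4 on chromosome 4 pairs a galactosyltransferase of proteoglycan linker synthesis with a Golgi calcium-binding protein. Its fold enrichment was 330, 274, 360, 380, 227, 282 and 320 in libraries 1, 2, 4, 5, 6, 7 and 8, again highest in library 5 and lowest in library 6, with a mean of 310 ± 53.1. The interval printed above contains 7 copies of the 20-base unit ctggaaggcgcctgcgcgac, spaced 27 to 32 bases apart, and none of the motifs searched. Its summit stood 5.57 ± 1.51 bp from the midpoint over the 7 libraries, inside the repeat.

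Rpgrip1l/Fto on chromosome 8 joins a gene of the ciliary transition zone with an RNA demethylase gene, 263 bp apart. It had a mean of 299 ± 66.2, and its summit was at -5 bp from the midpoint, the minus denoting the side of the minus-strand gene, in all 7 libraries, with an SD of 0. Nfya/Oard1 on chromosome 17 had 298 ± 50.3 with a peak 4083 bp wide. Nfya encodes the subunit of NF-Y that contacts CCAAT, and Oard1 an ADP-ribose hydrolase. Hdlbp/Sept2 on chromosome 1, the genes of vigilin and a septin, had 291 ± 65.1 with its summit at -494 bp from the midpoint, in an intron in 7 of 7 libraries. The annotation holds a further record of Sept2, so this peak counts for a pair more, with the same values. In the 300-bp window around the midpoint, CCAAT stood at Aamp/Pnkd and Srgap2/Fam72a. It did not stand at B3galt6/Sdf4, Rpgrip1l/Fto, Nfya/Oard1 or Hdlbp/Sept2. In 3 of these 6 pairs, the genes are on chromosome 1, where the median fold enrichment of pairs was 1.42 times that over all pairs. It was 1.28 times on chromosome 8 and 1.25 times on chromosome 17, and lowest on chromosome 15 at 0.758 times. Without these 3 chromosomes the difference in median log2 fold enrichment from isolated starts was 0.61.

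DNA repair and replication genes were the group of the lists most often paired after core histones: 36 of 120 listed genes (30.0%) were in a pair, against 6.79% of all protein-coding genes. All of their 36 pairs had a peak in all 7 libraries, beside 91.8% of all 755 pairs, with a median of mean fold enrichments of 128 against 111 over all pairs. The lowest value was 31.5 at Emc3/Fancd2, which holds a Fanconi anemia gene, and CCAAT was in 58.3% of these pairs. The pairs named at the ends of a gene list, here and in what follows, were chosen after their values were seen.

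Known bidirectional promoters of repair genes had a peak in every library. Atm, the kinase of the response to DNA breaks, and Npat, a coactivator of histone genes, start 307 bp apart and had 227, 188, 250, 281, 159, 184 and 220 in libraries 1, 2, 4, 5, 6, 7 and 8, with a mean of 216 ± 42.1. Brca1, of homologous recombination, and the autophagy receptor gene Nbr1 start 194 bp apart and had 197, 153, 153, 226, 120, 129 and 162, with a mean of 163 ± 37.4. The summit of Brca1/Nbr1 was not between the starts but 672 ± 8.69 bp from the midpoint, toward Nbr1, in an exon in 7 of 7 libraries. Library 5 gave the highest value and library 6 the lowest at both of these pairs.

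Wrn/Purg, the Werner helicase gene 798 bp from a purine-rich element binding protein gene, had a mean of 152 ± 23.0, and Mcm4/Prkdc, a replicative helicase subunit beside the end-joining kinase, 146 ± 30.0. Toe1/Mutyh, the latter a glycosylase of base excision repair, had 140 ± 30.7, and Trmt6/Mcm8, the latter a helicase of recombination, had 139 ± 21.4. Ndufaf2/Ercc8, an assembly factor of respiratory complex I beside a gene of transcription-coupled repair, had 87.7 ± 16.2. Rad9b/Vps29 and Brix1/Rad1, with genes of the checkpoint clamp, had 82.0 ± 12.1 and 69.7 ± 20.1. Rad51c/Tex14, a gene of homologous recombination beside a germ-cell gene, was the least intense of these pairs with 43.4 ± 7.93 and a summit at -522 ± 52.5 bp from the midpoint.

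**Figure D5:**
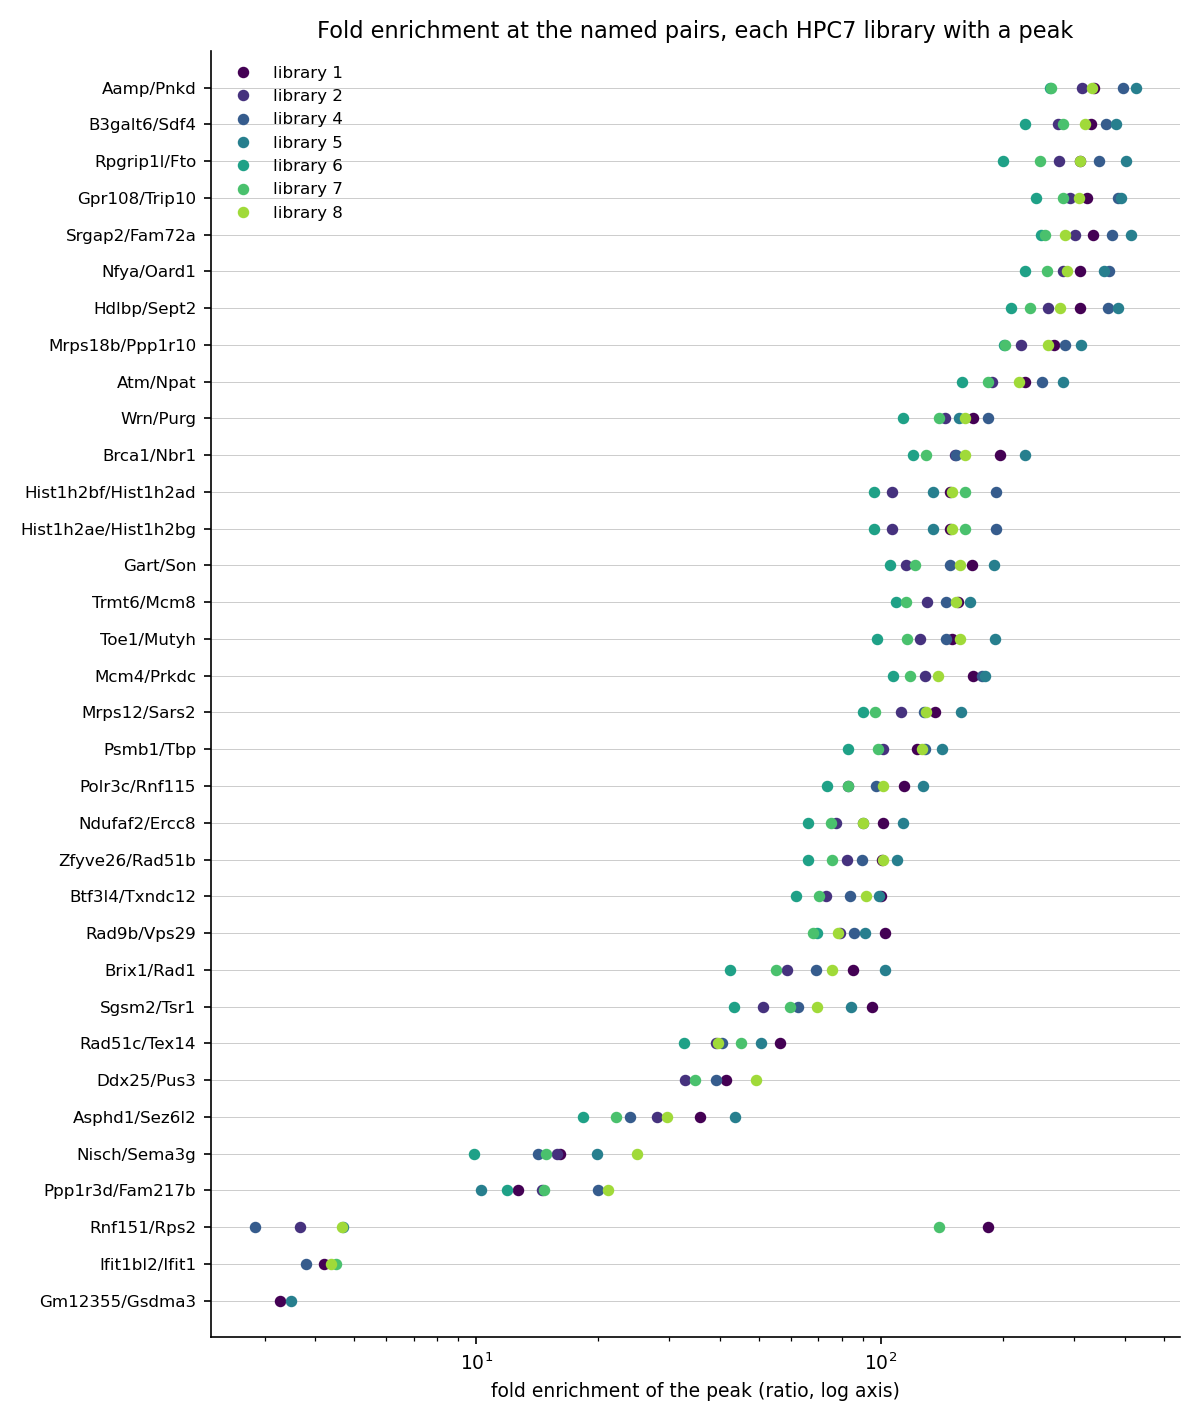
Fold enrichment over the background of the library (log axis) for the named pairs described here with a peak in at least 1 library and for Gpr108/Trip10 and Sgsm2/Tsr1 just outside 1 kb, with 1 point per library that has a peak, sorted by median. Aamp/Pnkd stands at the top with 261 to 426, Atm/Npat spans 159 to 281, and Rad51c/Tex14 spans 32.7 to 56.3.

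Replication-dependent histones were the most often paired list: 27 of 67 genes (40.3%) were in a pair, and 13 of the 14 pairs had a histone gene on both sides. Of these 14 pairs, 11 had a peak in all 7 libraries with mean fold enrichments of 110 to 158, and 3 had none, beside 91.8% and 7.28% of all pairs. The 3 were all pairs of a histone 2A with a 2B gene, as were most of the 11 with a peak. All 14 held CCAAT, 71.4% held TATAAA, against 4.37% of all pairs, and 0 held the ETS letters. Their median width was 3878 bp against 2014 bp over all pairs. The widest peak of any pair covered both Hist1h2ae/Hist1h2bg and Hist1h2bf/Hist1h2ad on chromosome 13, at 7973 ± 353 bp, with fold enrichments of 148, 107, 192, 135, 96.2, 161 and 150 and thus with library 4 highest. These 2 pairs share 1 peak, so they are 1 measurement and not 2.

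Genes of mitochondria followed. All 24 pairs with a respiratory chain gene (24 of 103 genes, 23.3%) had a peak in all 7 libraries, as did 91.8% of all pairs, at 25.4 (Ndufa1/Rnf113a1) to 181 (Tepsin/Ndufaf8) and a median of 87.6. All 18 pairs with a mitochondrial ribosome gene (18 of 78, 23.1%) did as well, at 34.3 (Zfp661/Mrps5) to 250 (Mrps18b/Ppp1r10). Mrps18b/Ppp1r10, with a regulator of protein phosphatase 1, also had the widest peak after the shared histone peak, 6243 bp, and a mean of 250 ± 42.4. Mrps12/Sars2, a mitochondrial ribosomal protein beside the mitochondrial seryl-tRNA synthetase, had 121 ± 23.4 and a mean summit position of -1 bp from the midpoint, among the 4 CCAAT boxes printed above.

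Most other groups of basic cell functions listed were paired more often than 6.79% as well, while purine and pyrimidine synthesis genes were at 4.76% (1 of 21). RNA polymerase and general transcription factor genes were at 23.1% (24 of 104), chaperones at 22.9% (8 of 35), splicing factors at 19.1% (9 of 47), proteasome subunits at 16.0% (8 of 50) and aminoacyl-tRNA synthetases at 13.2% (5 of 38). Each of the pairs of these lists had a peak in all 7 libraries, beside 91.8% of all pairs. The list of chaperones does not hold Hspa1a, whose pair Hspa1a/Hspa1l had no peak in any library. Ubiquitin conjugation genes were at 11.4% (18 of 158) with a peak at 17 of 18 pairs. Polr3c/Rnf115, an RNA polymerase III subunit beside a ubiquitin ligase, had 97.0 ± 18.9. Gart/Son, a purine synthesis enzyme beside a splicing cofactor, with starts 554 bp apart, had 144 ± 30.9 with the summit 535 bp from the midpoint, in an exon. Psmb1/Tbp, a proteasome subunit beside the TATA-binding protein, had 114 ± 20.7, with the summit within 23 bp of the midpoint in 6 libraries and at -1590 bp in library 1.

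Of the cytosolic ribosomal protein genes, 8 of 79 (10.1%) were in a pair, 0 of the 8 pairs held ETS letters and 12.5% held CCAAT, and the 7 with a peak in all 7 libraries had mean fold enrichments of 29.9 to 95.8, all under the median of 111 over all pairs. Their median was 75.7, beside 87.6 for the respiratory chain and 89.4 for the proteasome. Zinc finger genes were in pairs at 5.08% (20 of 394) and genes restricted to other tissues at 0.162% (3 of 1847). None of the 77 blood genes was in a pair, so the pairs hold no gene of that list.

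Pairs at the edge of the 1 kb rule were read on both sides of it. Just inside, Btf3l4/Txndc12 at 987 bp had a mean of 82.8 ± 14.9, Asphd1/Sez6l2 at 981 bp 28.8 ± 8.64 and Zfyve26/Rad51b at 978 bp 89.2 ± 15.5. Just outside, Serpina7/4930513O06Rik at 1007 bp had no peak in any library, Gpr108/Trip10 at 1009 bp had 318 ± 54.5 and Sgsm2/Tsr1 at 1011 bp 66.5 ± 18.1. Gpr108/Trip10 would thus have ranked second among the pairs, with a summit at -1135 bp from its midpoint.

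Among the pairs with a peak in all 7 libraries, those that varied most between libraries were of low intensity or shared a peak. Ppp1r3d/Fam217b, a phosphatase regulator beside a gene of unknown function, had 12.7, 14.5, 19.998, 10.3, 11.9, 14.7 and 21.1, with libraries 4 and 8 high. Its coefficient of variation after scaling was 27.9%. Nisch/Sema3g, an imidazoline receptor gene beside a semaphorin gene, followed at 21.9% with a mean of 16.5 ± 4.74, and the shared histone peak described above at 21.4%.

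In 7 of the 755 pairs the libraries disagreed on a peak, beside 1063 of all 21938 protein-coding starts. Rnf151/Rps2, which holds a ribosomal protein gene, had 184 in library 1 and 139 in library 7, from peaks of 6877 and 3739 bp whose summits lay 1942 and 1923 bp from the midpoint. It had 3.67, 2.84, 4.70 and 4.66 in libraries 2, 4, 5 and 8, with summits 169 to 290 bp from the midpoint, and no peak in library 6. Ddx25/Pus3, a germ-cell helicase beside a pseudouridine synthase, had 41.4, 32.7, 39.2, 34.7 and 49.1 in libraries 1, 2, 4, 7 and 8 with summits 887 to 901 bp from the midpoint and thus outside the region, which the peak reached by its flank. Ifit1bl2/Ifit1, of the interferon response, had 3.79 to 4.51 in 4 libraries, and Gm12355/Gsdma3 had 3.28 and 3.48 in 2 libraries.

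The 55 pairs without a peak in any library differed from the 693 in composition. Their median CpG ratio was 0.536, 34.5% were CpG-rich against 76.6%, and 3 (5.45%) held ETS letters against 208 (30.0%). Chromosome X held 7 of them, out of its 20 pairs, and 13 (23.6%) had an unnamed locus as a member, against 9.09% of the 693. Col4a4/Col4a3, the basement membrane collagens whose starts are 72 bp apart, was the textbook pair without a peak, and its interval printed above holds none of the motifs marked. The 5 closest pairs without a peak were Wdr54/1700003E16Rik at 7 bp, Plcd3/Acbd4 at 24 bp, Best1/Rab3il1 at 36 bp, 4930430F08Rik/1700017N19Rik at 61 bp and Kctd19/Lrrc36 at 69 bp. Best1 is a chloride channel gene of the retinal pigment epithelium. Only the outermost annotated start of each gene was read, so a peak at another start of these genes was not counted unless it reached the region.

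Some of these regions also occur elsewhere in the genome in near-identical copies, where aligned reads may not be unique. At least 50% of the 32-base stretches of the region had another exact copy in the genome in 5 of the 55 pairs without a peak (9.09%) and in 9 of the 693 (1.30%). For the histone pairs Hist1h2ap/Hist1h2br and Hist1h2bq/Hist1h2ao, without a peak, this share was 100%, and for Hist1h2ba/Hist1h2aa, also without one, 16.5%. In contrast, 7 histone pairs with a peak in all 7 libraries had 51.6% to 59.9%. The part of repeated sequence in the missing peaks was not tested.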

How the data were processed

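Bulk ATAC-seq was read from 7 HPC7 libraries, each as a list of peaks. Before deposit, the authors removed adapters (Cutadapt), mapped reads (BWA-mem, build mm10) and ran MACS2 on every library by itself; versions and options are not given in the sources used here. The lists hold no read counts; the sequencing statistics of the study give the most reads to library 1, and their values were not used. The deposited lists give fold enrichment (a ratio over the background of the library), −log10 p and −log10 q of each peak, and a score derived from −log10 q that was not used.

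Regions were overlapped with peaks by at least 1 bp, and the most intense peak was taken. Regions without a peak were left out of medians of fold enrichment, percentile and width. The difference between sets was computed within each library and tested by the exact two-sided sign-flip permutation test over 7 libraries (128 sign patterns), with Benjamini-Hochberg adjustment over 8 tests. Overlaps were checked against bedtools 2.31.1 and the test on simulated data. Python 3.11.15, numpy 2.4.6, pandas 2.3.3, pysam 0.24.0, samtools 1.23.1 and matplotlib 3.10.9 were used. Sequence and gene models came from GRCm38 with GENCODE M21, on chromosomes 1 to 19, X and Y.

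The members, lists and alternatives were chosen with earlier results of these data known. Pairs were named by rule: the 6 most intense, the 5 closest without a peak, 4 with a peak in 1 to 6 libraries, textbook pairs that met the rule (19 of 57), blood gene pairs (0), the 3 widest, the 3 most variable, 3 on either side of 1 kb, and pairs with 2 peaks in all libraries (0). Some pairs that the rule names are not reported here. Motif positions, CCAAT numbers, summit annotation, the blood gene check and the repeated 32-base stretches were added after seeing the data. The alternatives were other flanks, distances, overlap and isolation rules, a −log10 q of at least 5, equal numbers of peaks, regions of equal length, CpG-rich regions, merged regions, and leaving out each library or some chromosomes.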

Additional observations from a re-analysis of the deposited data

Results flagged for a closer look

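Library 1, which had the most peaks (132852), stood apart from the other libraries in 3 of the 48 values compared, meaning that its gap to the nearest library took up more of the whole range than Dixon's 95% critical value for 7 samples allows. The share of divergent pairs with a peak was 92.715% in library 1, and the next was 92.185%. The median peak width at pairs was 2396 bp in library 1, with the next at 2051 bp. The difference in median width between pairs and isolated starts was 454.5 bp in library 1, with the next at 396 bp. Chance flags about 1 in 20 groups of samples by this measure.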

How the results depend on the processing

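All alternative values of the 8 differences kept their direction, and each test kept its side of the threshold where it could reach it. The difference in share from isolated starts was 20.7 to 50.6 percentage points, lowest among CpG-rich regions, and that in width 215 to 421 bp. Against coding-lncRNA pairs the ranges were 11.9 to 19.2 points, 0.14 to 0.54 in log2 fold enrichment and 36.4 to 125 bp. With regions that lack a peak set to 0, the difference in median log2 fold enrichment from isolated starts was 6.66, which is the median of the pairs alone: most isolated starts lack a peak, so their median is then 0 and the direction is fixed, for percentiles as well. Pairs with a peak in all 7 libraries numbered 658 to 698, and 693 to 694 with 1 library left out. With 84593 peaks taken from each library the calls were the same. Merging overlapping regions and leaving out tissue-restricted families were chosen after seeing the data. The libraries of a single name prefix are too few for the test to reach its threshold. No paired analysis was possible because the labels give a single group, so that replicate numbers pair no samples across groups; the differences between sets of regions were taken within each library. The peak lists hold no read counts, so weak peaks near the calling limit were not compared at equal read depth.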

Other observations

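Some pairs without a peak in any library hold genes known for expression in other tissues or from a single parental allele. They were picked out after their values were seen, and the 55 pairs were not tallied by kind. Imprinted genes are in Sgce/Peg10 and Peg3/Usp29, meiotic genes in Smc1b/Ribc2 and Patl2/Terb2, a testis kinase gene in Dgcr2/Tssk2, the thyroid and airway oxidase genes in Duox2/Duoxa2, and the kidney slit diaphragm genes in Kirrel2/Nphs1. Hspa1a/Hspa1l, which holds a heat-inducible chaperone gene, had no peak in any library either, and 37.6% of the 32-base stretches of its region have an exact copy elsewhere in the genome. The list also holds Lrrc63/Lcp1, with the leukocyte gene of an actin-bundling protein, and Slc27a5/Trim28, with a broadly expressed corepressor gene.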
